A study of Mus musculus with 8 samples.

Results

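A set of 9 markers of cholangiocytes, the epithelial cells that line bile ducts, and of the ductular reaction was followed in livers of Fxr knockout mice with and without hepatocyte Bcl6. The 9 members, Krt7, Krt19, Epcam, Cldn7, Sox9, Spp1, Cftr, Prom1 and Tm4sf4, were taken by gene symbol from the 24940 genes of the count table. All 9 were found there. The 4 FxrKO livers (FXRKO in the labels) came from C57BL/6 mice homozygous for the FXR mutation with floxed Bcl6 (Bcl6 fl/fl). The 4 Bcl6LKOFxrKO livers (BCL6LKOFXRKO) had in addition Alb-Cre, a recombinase driven by the albumin promoter that deletes Bcl6 in hepatocytes, and all 8 mice were male per the study. Ages are not given in the sources used here. The Cre was carried by 1 genotype only, so its presence and the loss of Bcl6 cannot be told apart. The livers are named by their library labels, 1 to 4 for FxrKO and 5 to 8 for Bcl6LKOFxrKO.

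Cholangiocytes are joined by tight junctions, carry simple-epithelium keratins of which hepatocytes normally lack some, and modify bile by secreting chloride, bicarbonate and water. In cholestatic and fibrotic liver disease, small ducts with such cells multiply at the edge of the portal tract, which is called the ductular reaction. Some of its markers, among them SOX9, osteopontin (Spp1) and prominin 1 (Prom1), also appear in progenitor-like cells, injured hepatocytes or other liver cells. In whole liver RNA, a change in the number of cells of a type and a change of RNA per cell cannot be told apart.

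RNA totals on genes ranged from 7586241 to 11839503 counts per liver, and 3 counts corresponded to 0.272 to 0.375 CPM (counts relative to the TMM-scaled size of the library), a limit for counting error only. The 50 most counted genes held 29.8% to 31.2% of counts in FxrKO livers and 40.7% to 44.1% in Bcl6LKOFxrKO livers. Bcl6 lay between 21.2 and 65.2 CPM in FxrKO livers and between 4.61 and 11.9 CPM in Bcl6LKOFxrKO livers, so the targeted gene followed the labels. Nr1h4, the gene of FXR, was still counted, at 60 ± 2.46 and 43.5 ± 3.69 CPM (SD, n = 4 each). It was lower in Bcl6LKOFxrKO livers (log2 fold change -0.46, adjusted p = 0.00497 from edgeR). Nothing in the labels says more of the livers than that they are separate samples, so p-values measure the spread between these samples.

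The bases upstream of the counted transcript start are shown for 3 members that stand for the 3 outcomes below: the largest rise (Prom1), a smaller rise (Spp1) and no detectable change (Tm4sf4). RefSeq promoters of GRCm38.p6 (mm10) starting at the counted transcript were found for 7 of the 9 members. Each line gives 250 bases, 5′ to 3′ on the gene's strand, with capitals for matches to any of 5 short motifs searched on both strands.
Prom1, chr5:44101737-44101986, minus strand: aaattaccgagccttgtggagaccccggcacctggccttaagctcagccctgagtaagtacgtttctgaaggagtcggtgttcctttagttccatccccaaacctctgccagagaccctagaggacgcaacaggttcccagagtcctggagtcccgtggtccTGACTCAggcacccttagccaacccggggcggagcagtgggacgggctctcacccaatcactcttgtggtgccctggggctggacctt
Spp1, chr5:104434861-104435110, plus strand: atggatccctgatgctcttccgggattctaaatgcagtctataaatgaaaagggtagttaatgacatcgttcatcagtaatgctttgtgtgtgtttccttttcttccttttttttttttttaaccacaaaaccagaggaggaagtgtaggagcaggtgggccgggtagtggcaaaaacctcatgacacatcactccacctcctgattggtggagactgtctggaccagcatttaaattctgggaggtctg
Tm4sf4, chr3:57425160-57425409, plus strand: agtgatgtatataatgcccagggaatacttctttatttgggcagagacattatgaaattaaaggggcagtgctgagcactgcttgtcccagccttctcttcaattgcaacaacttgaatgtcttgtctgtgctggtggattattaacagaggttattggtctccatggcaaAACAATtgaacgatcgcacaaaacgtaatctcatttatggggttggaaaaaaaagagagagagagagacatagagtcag
The motifs were TTCNNNGAA (BCL6- or STAT-type), TGANTCA (AP-1 type), GGAATG (TEAD type), AGGTCA (nuclear receptor type) and AACAAT (SOX type). The Prom1 window held 1 match, TGANTCA from 88 to 82 bases upstream, a motif present in 6.75% of all 32817 windows. The Tm4sf4 window held AACAAT from 79 to 74 bases upstream, a motif present in 9.42% of windows. TTCNNNGAA, present in 7.01% of windows, matched in the Cldn7 window alone among the 7 members, from 185 to 177 bases upstream, where AGGTCA (14% of windows) also matched from 31 to 26. No motif matched in the windows of Spp1, Krt7, Epcam and Cftr, and GGAATG (12.6% of windows) matched in none of the 7. A match is a match of letters and was not tested as a binding site.

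Of the 9 members, 6 passed edgeR's expression filter, and 3 of these (Krt19, Spp1 and Prom1) were higher in Bcl6LKOFxrKO livers at an adjusted p under 0.05 (edgeR's quasi-likelihood test, Benjamini-Hochberg over 12340 genes). DESeq2 and limma voom gave the same counts, 3 higher and 0 lower, and at an unadjusted p under 0.05 edgeR had 4 higher and 1 lower (Sox9). Over all tested genes, 16.2% were called higher and 13.5% lower. Of the genes called, 54.5% were higher, and 32.3% when counts were scaled by their totals alone. Krt19 and Prom1 passed the filter through the Bcl6LKOFxrKO livers alone, where they were high, so they had to differ to be tested and the count of 3 of 6 is a description. With at least 10 counts in every liver, 1 member (Spp1) was called, and neither Krt19 nor Prom1 was tested. Krt7, Cldn7 and Cftr were too low for the filter and are described by their counts.

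**Figure D1:**
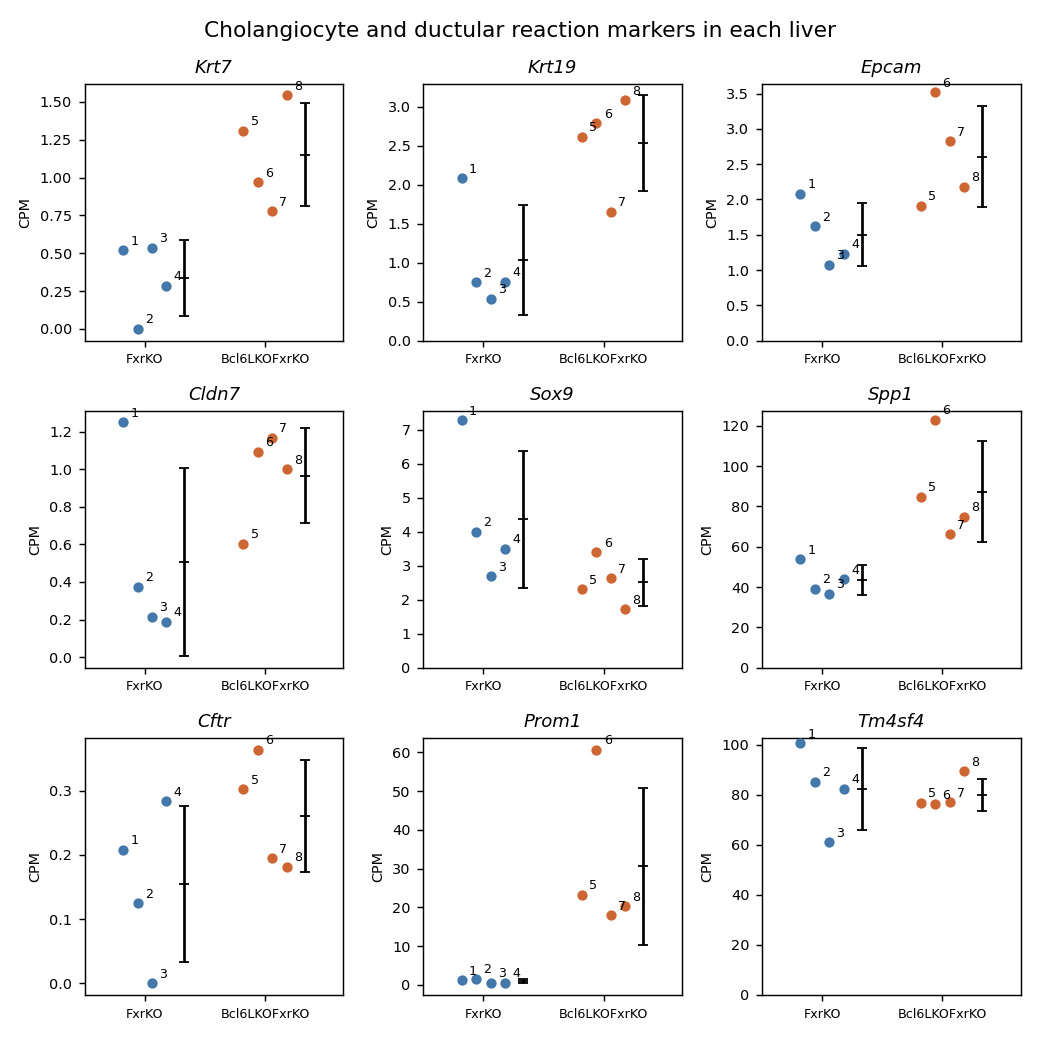
CPM of the 9 members in each liver, numbered by library, with FxrKO livers in blue, Bcl6LKOFxrKO livers in orange and bars for the mean ± SD (n = 4). Each panel has its own linear axis. The genotypes did not overlap for Krt7, Spp1 and Prom1, a pattern found upward in 16.1% of tested genes. FxrKO liver 1 was the highest of its genotype for Krt19, Epcam, Cldn7, Sox9, Spp1 and Tm4sf4.

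Krt7 and Krt19 encode the keratins that define bile duct epithelium. Krt7 (NM_033073, mm10 chromosome 15 from 101412403 to 101427806) had 5, 0, 5 and 3 counts in FxrKO livers 1 to 4 and 13, 8, 8 and 17 counts in Bcl6LKOFxrKO livers 5 to 8. All 4 Bcl6LKOFxrKO livers lay above all 4 FxrKO livers, a pattern found upward in 16.1% of tested genes. Mean Krt7 was 0.335 ± 0.252 CPM in FxrKO livers and 1.15 ± 0.342 CPM in Bcl6LKOFxrKO livers (SD, n = 4 each), a ratio of means of 3.43. The exact permutation test gave p = 0.0286, the smallest that 70 orderings allow, and 0.0857 after adjustment over the 9 members. When the filter was dropped, edgeR's adjusted p over all genes was 0.0282.

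Krt19 (NM_008471, chromosome 11 from 100140811 to 100145926) had 20, 6, 5 and 8 counts in FxrKO livers and 26, 23, 17 and 34 counts in Bcl6LKOFxrKO livers. FxrKO liver 1, at 2.08 CPM, reached into the Bcl6LKOFxrKO range, which began at 1.66 CPM in liver 7, and the other 3 FxrKO livers lay at or below 0.757 CPM. Krt19 rose by a log2 fold change of 1.28 (SE 0.39, adjusted p = 0.0271 from edgeR). The call was lost in 6 of the 8 fits that left out 1 liver (adjusted p up to 0.0807), in all but those without FxrKO liver 1 and without Bcl6LKOFxrKO liver 7. Without liver 1 the log2 fold change was 1.87 (edgeR, adjusted p = 0.00278).

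Epcam and Cldn7 encode a surface adhesion protein of bile duct cells and a tight junction claudin. Epcam (NM_008532, chromosome 17 from 87635979 to 87651127) had 20, 13, 10 and 13 counts in FxrKO livers and 19, 29, 29 and 24 counts in Bcl6LKOFxrKO livers. In CPM, 3 of the 4 Bcl6LKOFxrKO livers lay above every FxrKO liver, and liver 5, at 1.91 CPM, lay below FxrKO liver 1, at 2.08 CPM. The log2 fold change was 0.78 (SE 0.30, 95% interval 0.13 to 1.44) and missed the threshold (adjusted p = 0.0683 from edgeR). It passed without FxrKO liver 1, at 0.98 on the log2 scale (edgeR, adjusted p = 0.0452).

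Cldn7 (NM_016887, chromosome 11 from 69965421 to 69967886) had 12, 3, 2 and 2 counts in FxrKO livers and 6, 9, 12 and 11 counts in Bcl6LKOFxrKO livers. FxrKO liver 1, at 1.25 CPM, was the highest of all 8 livers, and the other 3 FxrKO livers lay below every Bcl6LKOFxrKO liver. The ratio of means was 1.91 (exact permutation p = 0.171). On the log2 scale it was 0.93 with all livers and 1.90 without FxrKO liver 1. Without the filter, edgeR's adjusted p over all genes was 0.268 for Cldn7.

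Sox9, the transcription factor of biliary development that also marks progenitor-like hepatocytes, pointed the other way. Sox9 (NM_011448, chromosome 11 from 112782210 to 112787757) had 70, 32, 25 and 37 counts in FxrKO livers and 23, 28, 27 and 19 counts in Bcl6LKOFxrKO livers. FxrKO liver 1, at 7.28 CPM, was the highest of all, and Bcl6LKOFxrKO liver 6, at 3.40 CPM, lay above FxrKO liver 3, at 2.69 CPM. The log2 fold change was -0.81 (SE 0.32, 95% interval -1.51 to -0.11) and missed the threshold (adjusted p = 0.0773 from edgeR). It was -0.44 without FxrKO liver 1 (edgeR, adjusted p = 0.275) and -0.66 in limma voom (adjusted p = 0.127). It passed in edgeR when counts were scaled by their totals alone (-0.97, adjusted p = 0.0318), a scaling that moved the median gene by -0.16, and without FxrKO liver 3 (-0.99, adjusted p = 0.0437).

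Spp1 encodes osteopontin, a secreted matrix protein made by bile duct cells and by activated macrophages. Spp1 (NM_001204201, chromosome 5 from 104435111 to 104441053) stood at 53.7, 39.2, 36.6 and 44 CPM in FxrKO livers and at 84.7, 123, 66.2 and 74.8 CPM in Bcl6LKOFxrKO livers. The genotypes did not overlap, a pattern found upward in 16.1% of tested genes. Spp1 rose by a log2 fold change of 1.0 (SE 0.19, 95% interval 0.60 to 1.41, adjusted p = 0.00157 from edgeR), and it was called in every alternative fit, with adjusted p-values up to 0.00739.

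Cftr, the chloride channel of the apical bile duct membrane, was at the limit of detection. Cftr (NM_021050, chromosome 6 from 18170687 to 18322769) had 2, 1, 0 and 3 counts in FxrKO livers and 3, 3, 2 and 2 counts in Bcl6LKOFxrKO livers. The sums of 6 and 10 counts have exact 95% Poisson intervals of 2.2 to 13.1 and 4.8 to 18.4, which cover counting error only and overlap. A difference was not detectable at this depth, and no fold is given. Without the filter, edgeR's adjusted p over all genes was 0.611 for Cftr.

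Prom1 encodes prominin 1 (CD133), a membrane glycoprotein of apical protrusions used as a marker of biliary progenitor cells. Prom1 (NM_001163577, chromosome 5 from 43993622 to 44101736, minus strand) had 11, 13, 5 and 6 counts in FxrKO livers and 231, 500, 185 and 223 counts in Bcl6LKOFxrKO livers. In CPM this was 1.14, 1.62, 0.537 and 0.568 against 23.3, 60.7, 18 and 20.2. The lowest Bcl6LKOFxrKO liver lay far above the highest FxrKO liver, and liver 6 stood above the other 3 of its genotype. Separation of the genotypes was found upward in 16.1% of tested genes. Prom1 rose by a log2 fold change of 4.99 (SE 0.57, adjusted p = 0.000288 from edgeR), a fold of 31.9 with a 95% interval of 13 to 78.1. It ranked 56 among the 12340 tested genes by log2 fold change. Without Bcl6LKOFxrKO liver 6 the call held, as it did in every fit that left out 1 liver (log2 fold changes from 4.42 to 5.32). The annotation places the antisense gene Gm16401 across the Prom1 start, and no strand was set in the stated counting, so reads of both cannot be told apart.

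Tm4sf4 encodes a tetraspanin-like membrane protein of liver and intestine. Tm4sf4 (NM_145539, chromosome 3 from 57425410 to 57441675) stood at 100.7, 85.2, 60.9 and 82.5 CPM in FxrKO livers and at 76.9, 76.2, 76.9 and 89.4 CPM in Bcl6LKOFxrKO livers. The Bcl6LKOFxrKO livers lay inside the FxrKO range. The log2 fold change was -0.04 (SE 0.14, adjusted p = 0.844 from edgeR), with a 95% interval of -0.35 to 0.26, so a change of the size seen for Spp1 lies outside it.

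**Figure D2:**
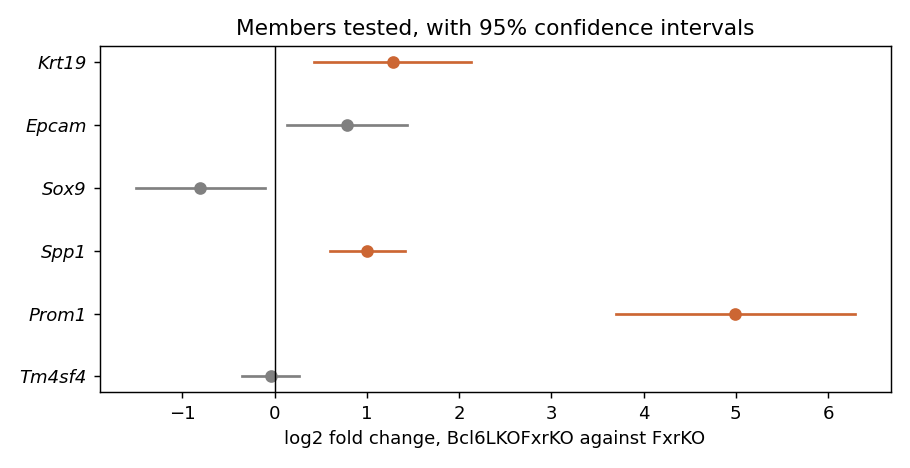
Log2 fold changes of the 6 tested members, Bcl6LKOFxrKO against FxrKO, with lines for 95% intervals, orange where called higher and grey where not called (edgeR, n = 4 per genotype). Prom1, at 4.99, stands apart from Krt19 at 1.28 and Spp1 at 1.0, and the interval of Tm4sf4 runs from -0.35 to 0.26.

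Compared per length, the members fell into a pair of high genes and a group of low ones. Tm4sf4 was at 59.2 ± 11.8 and Spp1 at 29.6 ± 5.12 CPM per kb in FxrKO livers (SD, n = 4 each), and no other member exceeded 1.06 CPM per kb there. In Bcl6LKOFxrKO livers Spp1 reached 59.5 ± 17.1 CPM per kb beside 57.4 ± 4.6 for Tm4sf4, which does not differ beyond its spread. Prom1 moved from 0.261 ± 0.14 to 8.22 ± 5.43 CPM per kb, and became the third of the 9. Krt19, Epcam, Cldn7, Krt7 and Sox9 lay between 0.608 and 1.85 CPM per kb there, and Cftr was at 0.0415.

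The livers of a genotype did not rank alike for all members. Of the 8 members with more than 3 counts in some liver, FxrKO liver 1 was highest of its genotype for 6 and FxrKO liver 3 was lowest for 6. Among Bcl6LKOFxrKO livers, liver 6 was highest for Epcam, Sox9, Spp1 and Prom1, and liver 8 for Krt7, Krt19 and Tm4sf4. Without livers 1 and 6, a choice made after their values were seen, the log2 fold change was 1.83 for Krt19, 0.91 for Spp1 and 4.54 for Prom1, and all 3 were called.

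Each member was also set against Krt19 within the same liver, as the log2 ratio of counts with 0.5 added to each, to ask whether the markers kept their proportions. The ratio of Prom1 to Krt19 was -0.04 ± 0.81 in FxrKO livers and 3.41 ± 0.73 in Bcl6LKOFxrKO livers (SD, n = 4 each). The genotypes did not overlap. The ratio of Sox9 to Krt19 was 2.11 ± 0.23 in FxrKO livers and -0.02 ± 0.63 in Bcl6LKOFxrKO livers, again without overlap. The ratio of Tm4sf4 to Krt19 was 6.41 ± 0.57 against 4.98 ± 0.35, also without overlap, but narrowly (5.56 in FxrKO liver 1, 5.50 in Bcl6LKOFxrKO liver 7). For these 3 ratios the two-sided exact permutation test gave p = 0.0286, the smallest possible, and 0.0762 adjusted over the 8 ratios, which does not pass. Krt19 itself rose by 1.28 and Tm4sf4 was at -0.04, so a lower ratio is not by itself a fall of the member. How many of all genes separate relative to Krt19 was not counted. The ratios of Krt7, Epcam, Cldn7 and Spp1 to Krt19 overlapped between genotypes, with differences of 0.60, -0.63, -0.22 and -0.43 and exact permutation p-values from 0.2 to 0.6. Cftr is left out for its counts.

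**Figure D3:**
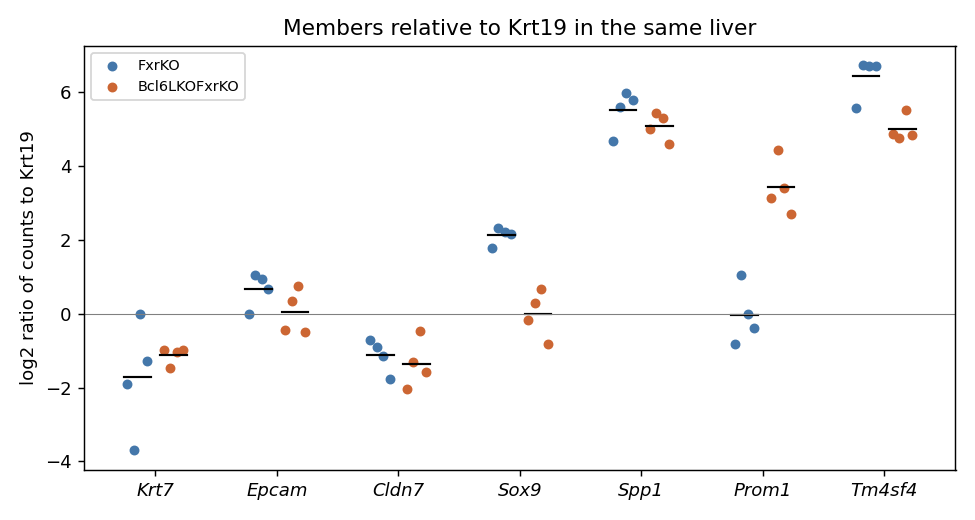
Log2 ratio of each member's counts to those of Krt19 in the same liver, with points for livers and black lines for means (n = 4 per genotype), FxrKO in blue and Bcl6LKOFxrKO in orange. Sox9 and Tm4sf4 are lower and Prom1 higher relative to Krt19 in all 4 Bcl6LKOFxrKO livers, while the other ratios overlap. None of these differences passed after adjustment over the 8 ratios (exact permutation test, adjusted p = 0.0762). The share of all genes that separate relative to Krt19 was not counted. Krt19 itself was called higher (1.28), and Tm4sf4 was at -0.04 and not called.

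A wider list of 89 biliary and ductular reaction genes, chosen by role, was read in the same fit. Of 64 tested, 21 (32.8%) were called higher and 7 (10.9%) lower, beside 16.2% and 13.5% of all tested genes. Itga6, Cldn4, St14, Elf3, Pdgfb, Ccl2 and Vtcn1 passed the filter through the Bcl6LKOFxrKO livers alone, so these counts are a description. Of all 12340 tested genes, 574 passed in that way. Of the 14 tested keratin, adhesion and junction genes, 8 were higher and 0 lower (0 lower also by DESeq2, by limma voom and at an unadjusted p under 0.05 in edgeR). Of the 8, Itga6, Cldn4 and St14 passed the filter through the Bcl6LKOFxrKO livers alone, so the count is a description. Krt8 and Krt18, the keratin pair that hepatocytes share with bile ducts, rose by 1.60 (SE 0.23, adjusted p = 0.000391 from edgeR) and 1.78 (SE 0.25, adjusted p = 0.000383). Itga6, a laminin-binding integrin, rose by 3.17 (adjusted p = 0.000285), and Cldn4, a claudin, by 2.59 (adjusted p = 0.00057). Cdh1 (E-cadherin) was at -0.36 and Muc1 (an apical mucin) at 0.06, and neither was called (adjusted p = 0.358 and 0.913). Krt23 was not tested, at 0.87 ± 0.301 and 0.973 ± 0.532 CPM (SD, n = 4 each).

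Of 13 tested transport genes of bile duct secretion, edgeR called 3 (23.1%) higher (Itpr3 by 1.37, Abcb1a by 1.16 and Ano1 by 1.09) and 3 lower (P2ry2 at -0.99, Atp1b1 at -0.88 and Slc12a2 at -0.86). These shares are near the 16.2% and 13.5% of all tested genes. Limma voom called 6 higher and 4 lower, and edgeR with scaling by totals alone called 3 higher and 5 lower. Slc4a2, the chloride and bicarbonate exchanger, was at 0.25 (adjusted p = 0.0722 from edgeR), and Aqp1, a water channel, was at 0.50 (adjusted p = 0.0599). Sctr, the secretin receptor, had between 1 and 4 counts in every liver. Of the 7 cilium and cyst genes tested, edgeR called 1 higher, Bicc1 (1.04, adjusted p = 0.0145), and 0 lower, and Pkhd1 was at -0.37. Limma voom, and edgeR with scaling by totals alone, each called 1 gene lower as well.

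Of 10 tested transcription factors, Elf3 (2.21) and Tead1 (1.03) were higher (20%), and Foxa1 (-1.64), Hhex (-0.78) and Yap1 (-0.41) were lower (30%). Over all tested genes, 16.2% were higher and 13.5% lower. Elf3 passed the filter through the Bcl6LKOFxrKO livers alone. Onecut1, a factor of early biliary development, was at 0.05 (edgeR, adjusted p = 0.96). Of 20 tested ductular reaction signals, 7 (35%) were higher and 1 (5%) lower. Of the 7, Vtcn1 and Pdgfb passed the filter through the Bcl6LKOFxrKO livers alone, so the count is a description. Pdgfa, a growth factor for stellate cells, rose by 2.71 (adjusted p = 2.33e-06), and Anxa2 by 1.77. Vtcn1, an immune checkpoint protein, had 0 to 3 counts in FxrKO livers and 10 to 33 in Bcl6LKOFxrKO livers, at least 6.7-fold higher against 3 counts per liver. Met, the hepatocyte growth factor receptor, fell by 1.12. The Notch ligand Jag1 was at 0.00, Notch2 at -0.08 and Tnfrsf12a, the TWEAK receptor, at 0.68, and none was called.

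**Figure D4:**
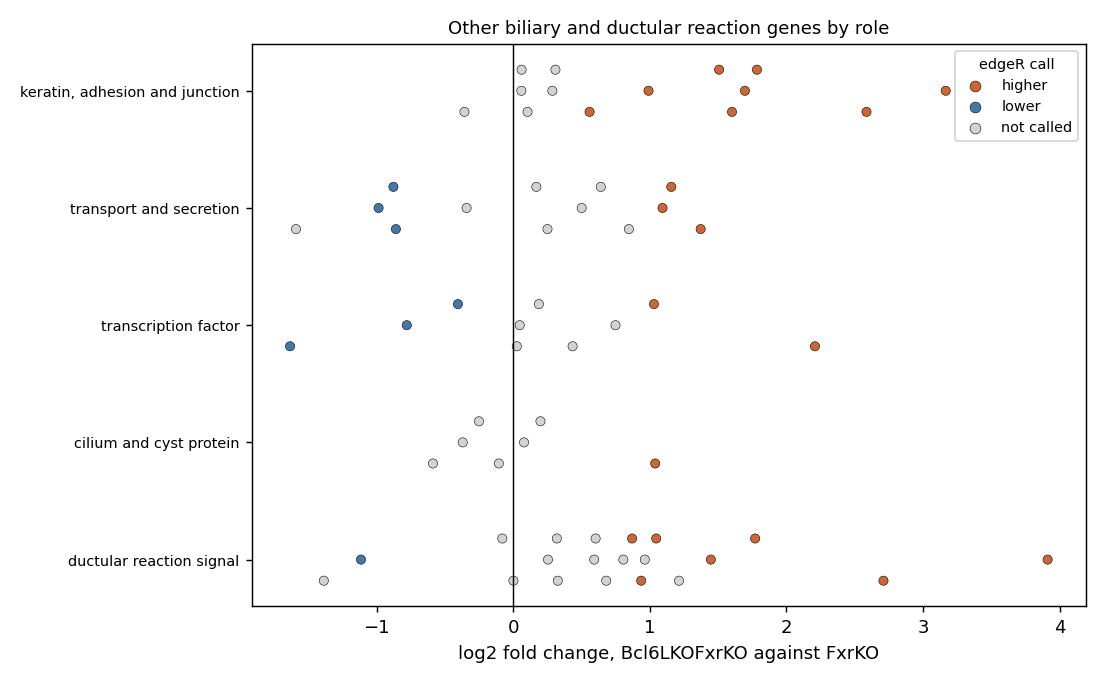
Log2 fold changes of the tested genes of the wider biliary list, Bcl6LKOFxrKO against FxrKO, in 1 row per role (vertical offsets only separate points), coloured by edgeR call. Of the keratin, adhesion and junction genes 8 of 14 are higher and 0 lower, 3 of them tested only through the Bcl6LKOFxrKO livers, while transport genes and transcription factors hold calls on both sides.

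Markers of other cells that can carry the member genes moved too, and their part in the members' values was not tested. Of 12 macrophage markers, 6 (50%) were higher and 0 lower, beside 16.2% and 13.5% of all tested genes. Among the 6 were Gpnmb (5.35, adjusted p = 0.000662 from edgeR) and Trem2 (2.85, adjusted p = 2.04e-05). Gpnmb, Trem2 and Ccr2 passed the filter through the Bcl6LKOFxrKO livers alone. The summed macrophage list ranged from 376.9 to 538.7 CPM in FxrKO livers and from 565.2 to 892.2 CPM in Bcl6LKOFxrKO livers. The resident markers Clec4f (0.20) and Cd5l (0.39) were not called. Of 12 stellate cell and fibroblast markers 9 (75%) were higher and 0 lower, with Dcn at 1.05 and Col3a1 at 0.91. Timp1 and Thy1 were among the 9 through a filter passed by the Bcl6LKOFxrKO livers alone. The sum of this list went from 250.3 to 340.3 CPM up to 511.8 to 632.5 CPM. Of 10 endothelial markers 3 (30%) were higher and 0 lower. These were Vwf at 1.60 (adjusted p = 8.26e-05 from edgeR), Stab2 at 0.63 and Eng at 0.45, and the rest of the list was not called.

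Of 12 hepatocyte markers, 2 (16.7%) were higher and 4 (33.3%) lower, beside 16.2% and 13.5% of all tested genes, with Alb at 1.60 and Cyp2e1 at -1.92. The 4 lower became 1 with the 50 most counted genes left out, a fit that no longer tests those genes, and 6 with scaling by totals alone. Of 6 tested cell cycle genes 3 (50%) were higher and 0 lower, with Mki67 at 1.87 and Ccna2 at 0.81. Of the rest, 1 of 6 mesothelial markers (Wt1, 0.87, adjusted p = 0.203 from edgeR) and 1 of 8 lymphocyte markers (Cd79b, 0.63, adjusted p = 0.304) were tested, and neither was called by edgeR, DESeq2 or limma voom or passed an unadjusted p under 0.05. The other lymphocyte markers were too low for the filter, and the summed lymphocyte list was at 2.5 to 5.7 CPM in FxrKO livers and 6.07 to 10.4 CPM in Bcl6LKOFxrKO livers, without overlap. Cd3e and Cd3d, of the T cell receptor complex, had 0 to 3 counts in FxrKO livers and 6 to 12 in Bcl6LKOFxrKO livers, and without the filter edgeR called both higher (adjusted p = 0.0126 and 0.0241). The other lymphocyte markers of the list were not called in that fit (edgeR, adjusted p from 0.112 to 0.959). The summed mesothelial list was at 1.25 to 5.7 CPM in FxrKO livers and 2.18 to 4.81 CPM in Bcl6LKOFxrKO livers. Of the pancreas and intestine list, Prss2, Pnlip, Ins2 and Cdx2 had 0 counts in all 8 livers, and Fabp2 (-1.81) and Cela1 (-1.49) were lower.

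**Figure D5:**
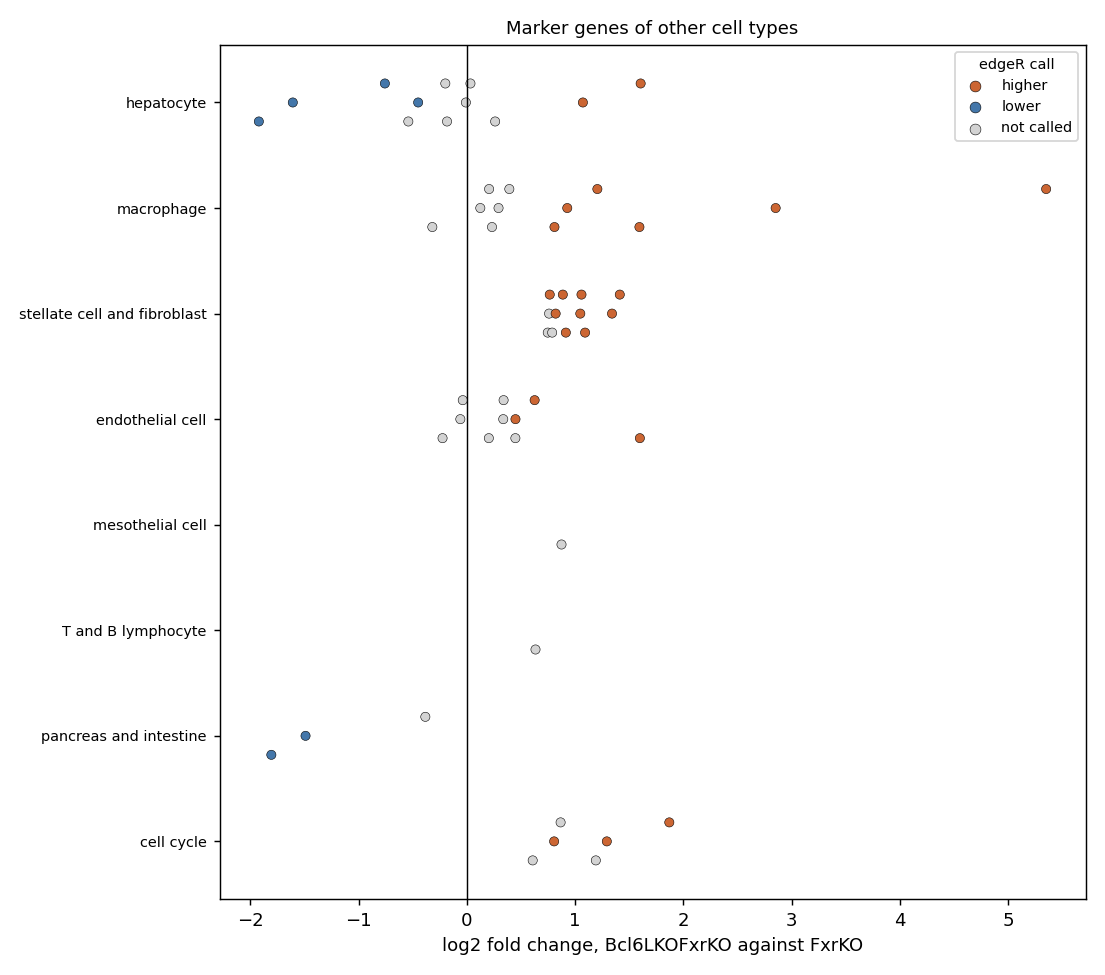
Log2 fold changes of tested marker genes of other cell types, Bcl6LKOFxrKO against FxrKO, in 1 row per list (vertical offsets only separate points), coloured by edgeR call. Stellate cell and fibroblast markers hold 9 of 12 genes called higher and macrophage markers 6 of 12, beside 16.2% of all tested genes. Hepatocyte markers hold calls on both sides.

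The tested genes whose levels over the 8 livers were most like each member's were found by the root mean square difference of log2 CPM, each gene centred on its mean. Prom1 was nearest to Eci3 (0.25), Serpina16 (0.50) and Fgf11 (0.52), and Spp1 to Smoc2 (0.14), Sept11 (0.15) and Pcolce (0.15). Krt19 was nearest to Fam83a (0.11), Npdc1 (0.15) and Rasl11b (0.17), and Epcam to Ninl (0.05), Zbtb42 (0.13) and Csf1 (0.14). Sox9 was nearest to Lpar2 (0.18), Tmem229a (0.18) and Raet1e (0.21), and Tm4sf4 to Bcl7b (0.08), Tmem51 (0.08) and Notum (0.09).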

How the data were processed

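Liver mRNA of 4 FxrKO and 4 Bcl6LKOFxrKO mice had been sequenced from a stranded kit. The authors aligned the reads to mm10 with STAR 2.5.2 and deposited unnormalized exon counts from HOMER 4.10, with 1 transcript per gene and no strand option in the file header. Transcript lengths are given in the same deposited table. edgeR 4.0.16 in R 4.3.3 was used with filterByExpr, TMM normalization and quasi-likelihood tests, adjusted by Benjamini-Hochberg over 12340 genes and tested on simulated data. Calls required an adjusted p under 0.05. In the simulated data edgeR recovered 68.7% of log2 changes of size 1 and 99% of size 2, and 7.3% of its calls were false. For single values, all 70 orderings of the livers gave two-sided exact permutation tests. Livers of 1 genotype differed beyond sampling noise (chi-square per degree of freedom 10 to 45.8). Members and lists were chosen with earlier results of these data known. Named genes were all members, a preset biliary set, the 3 called genes of largest change per biliary role and direction, the 2 highest of each other list, Bcl6, Nr1h4 and the 3 genes most like each tested member (0.5 CPM added, predicted genes left out). Gpnmb, Trem2, Ccr2, Vwf, St14, Pdgfb, Ccl2, Timp1, Thy1, Cd3e, Cd3d and the pancreas genes at 0 counts were named after their values were seen. Alternatives were RLE and total-count scaling, the 50 most counted genes left out, other filters, DESeq2 1.42.0, limma 3.58.1 (voom with quality weights), a fold threshold, each liver left out and, after seeing the data, livers 1 and 6 left out. The symbols Muc16 and Trbc2 of the lists were not matched. A gene that the rule names is not reported here.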

Additional observations from a re-analysis of the deposited data

Results flagged for a closer look

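In 14 of 92 groups of 4 livers examined, 1 liver lay far from the rest of its group. Each is given with its distance to the closest value as a share of the genotype's range. Chance gives about 1 in 20 groups, and values of 1 liver are not independent across genes. FxrKO liver 1 was the highest of its genotype for Krt19 (gap 0.858 of the range, 2.08 against 0.537 to 0.757 CPM), Krt8 (0.836, 252.3 against 161 to 176 CPM), Tnfrsf12a (0.923, 19.4 against 5.05 to 6.15 CPM) and Elf3 (0.88, 2.81 against 0.473 to 0.752 CPM), and the lowest for the log2 ratio of Tm4sf4 to Krt19 (0.972, 5.56 against 6.68 to 6.71).

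Bcl6LKOFxrKO liver 6 was the highest of its genotype for Prom1 (gap 0.877, 60.7 against 18 to 23.3 CPM), Cdh1 (0.897, 46.6 against 20.2 to 23 CPM) and Jag1 (0.848, 7.4 against 3.27 to 3.9 CPM), and the lowest for the log2 ratio of Krt7 to Krt19 (0.861, -1.47 against -1.04 to -0.97). Liver 8 was the highest for Tm4sf4 (0.944, 89.4 against 76.2 to 76.9 CPM), Tnfrsf12a (0.947, 21.2 against 12.2 to 12.7 CPM) and Itpr3 (0.845, 5.9 against 4.23 to 4.49 CPM). Liver 7 was the highest for the log2 ratio of Tm4sf4 to Krt19 (0.858, 5.5 against 4.74 to 4.85), and FxrKO liver 3 the lowest for Itga6 (0.84, 0.322 against 1.56 to 1.8 CPM).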

How the results depend on the processing

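Spp1 and Prom1 were called higher in every alternative in which they were tested. Krt19 was called in every alternative scaling, filter and tool that tested it, and its log2 fold change ran from 1.06 to 1.87 with 1 liver left out, with the call lost in 6 of those 8 fits. Leaving out 1 liver gave 0.61 to 0.98 for Epcam, -0.99 to -0.44 for Sox9, -0.17 to 0.064 for Tm4sf4, 1.36 to 2.10 for Krt7 and 0.66 to 1.90 for Cldn7 (the last pair as log2 ratios of mean CPM). It also gave 0 to 1 members and 4 to 8 genes of the wider biliary list called lower. The log2 ratios to Krt19 then ran from -0.056 to 1.18 for Krt7 and from -0.51 to 0.0018 for Cldn7, and an exact test of 3 against 4 livers cannot go below 0.057. Scaling by totals alone called Sox9 lower (-0.97), the 1 member called lower, and moved all genes called lower from 1665 to 2949. With at least 10 counts in every liver, 1 member (Spp1) was called, since Krt19 and Prom1 were no longer tested. With the 50 most counted genes left out, 3 genes of the other cell type lists were lower, against 6, and fewer genes were tested. Without livers 1 and 6, Tm4sf4 was at 0.088 and Cldn7 at 1.83. With Epcam in place of Krt19, the ratios of Cldn7 and Spp1 turned to 0.40 and 0.20, and the cause was not tested. No paired analysis was possible because the labels give no pairs and no shared replicate numbers: by the numbers in their titles, livers 1 and 6 are neighbours and livers 2, 7, 3, 8 and 4 form an unbroken run that can be paired in more than 1 way, with liver 5 apart. Depth limits Krt7, Cldn7 and Cftr, with at most 17 counts per liver.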
